A study of Mus musculus with 12 samples.

Results

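The imprinted Dlk1-Dio3 region of mouse chromosome 12 carries one of the largest groups of miRNA genes in placental mammals. Its miRNAs are expressed from the maternal chromosome, from long noncoding transcripts that run through Meg3, the strand antisense to Rtl1, Rian and Mirg, while the protein-coding genes Dlk1, Rtl1 and Dio3 are expressed from the paternal chromosome. The imprint is held by DNA methylation of an intergenic control region, and many of these miRNAs are enriched in neurons, where members such as miR-134 act at dendrites and synapses. L-methionine, the treatment studied here, is the precursor of the methyl donor S-adenosylmethionine.

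Members were chosen by name, as 55 mature miRNAs that annotation places in this region. Counts were found for 54 of them, among 1422 mature and predicted miRNAs with a count in any library. For the tests, a miRNA needed at least 5 counts in at least 3 libraries, which 53 members and 780 miRNAs in all had. The member mmu-miR-382-3p had no count in any library, where 3 counts equal 0.271 to 0.386 CPM (counts scaled to a library total of 1000000), a limit that covers counting error only. The member mmu-miR-679-5p had 1 count, in MS replicate 23, and was not tested. The least abundant members tested were mmu-miR-1197-3p, with 3 to 20 counts per library, mmu-miR-544-5p, with 1 to 33, and mmu-miR-299a-5p, with 9 to 25.

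Small RNA of 18 to 30 nt was sequenced from the prefrontal cortex (PFC) of adult male C57BL/6 mice that went through cocaine-conditioned place preference (CPP), a test of the time an animal spends where it was given the drug. The groups were saline with saline (SS), cocaine with saline (CS), methionine with saline (MS) and methionine with cocaine (MC), with 3 libraries per group, and tissue was taken 2 h after the test. Methionine was injected under the skin at 1 g/kg, repeatedly each day for 10 days. Each library was made from RNA pooled from a pair of animals, so p-values measure the spread between pools and not between single mice.

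In units of 1000000 counts, library totals were 8.23, 10.04 and 11.08 in SS replicates 12, 13 and 14, and 8.47, 8.71 and 8.18 in CS replicates 8, 9 and 10. They were 10.97, 10.01 and 10.39 in MS replicates 3, 4 and 23, and 7.77, 7.97 and 10.91 in MC replicates 16, 17 and 20. Between 56.1% and 67.9% of the counts of a library were on mature and predicted miRNAs. Levels are given either as CPM or as normalized CPM, in which the library total was scaled with TMM factors (a trimmed mean of log ratios) taken from the miRNAs. Mature members are of nearly equal length (19 to 25 nt, median 22), but capture in a library also depends on sequence, so levels set side by side between members or arms are levels in reads. The neuron and brain miRNAs listed as markers were abundant in all 12 libraries, led by miR-124-3p, miR-9-5p, miR-128-3p and miR-138-5p, with a summed level between 104817 and 273819 CPM.

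One library stood apart from the others. In MC replicate 16, 27 of 53 members (50.9%) had their lowest normalized level of all 12 libraries and 17 (32.1%) had their highest, while the same held for 28.1% and 32.1% of all miRNAs tested. Each member's log2 level in this library was set against its mean in the other 11 libraries. The SD of that deviation over members was 1.38 in MC replicate 16 and between 0.39 and 0.60 in the other libraries. Its TMM factor was 0.70 when taken from miRNAs and 0.99 when taken from all small RNAs.

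The deviation in MC replicate 16 moved with the base composition of the mature miRNA. Spearman's rho between the deviation and GC content was 0.677 across the 50 members with a sequence and 0.592 across 586 other miRNAs, while across the members it was between -0.423 and 0.139 in the other 11 libraries (across miRNAs, which share each library and are not independent). For those 11 libraries the mean that the deviation is taken from includes MC replicate 16, so their rho is not free of its trend. Of 17 members with GC content under 45%, 14 were lowest in this library, with a median deviation of -1.35. Of 12 members with 55% or more, 8 were highest there, with a median of 1.55. Between these limits, 9 of 21 were lowest and 6 highest. The members with the lowest and the highest deviation that have a sequence under their name in RefSeq (GRCm38.p6) are shown from 5′ to 3′. Bases 2 to 8, the seed that pairs with targets, are in capitals.
mmu-miR-544-5p: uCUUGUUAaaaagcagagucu
mmu-miR-136-3p: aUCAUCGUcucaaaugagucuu
mmu-miR-370-3p: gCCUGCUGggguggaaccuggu
mmu-miR-540-3p: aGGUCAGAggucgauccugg
Their deviations were -2.48, -2.24, 2.25 and 2.34, at a GC content of 33.3%, 36.4%, 68.2% and 60.0%. The first of these rests on 1 count of miR-544-5p in this library and is uncertain, while the others had 98, 1625 and 996 counts. In the same library the red blood cell miRNAs, 4 of 4 with counts and led by miR-451a, summed to 387.0 CPM against 1496 to 3973 elsewhere. The endothelial miRNAs, 2 of 2 with counts and led by miR-126a-3p, summed to 2972 CPM against 6580 to 9877. For members and their sum, results that rest on this library are given with and without it. For members with a sequence they are also given from a fit with the trend in GC content removed from each library. Tests of markers and of other arms of the region are given only with it. The part of the cell markers in the results on MC was not tested.

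**Figure D1:**
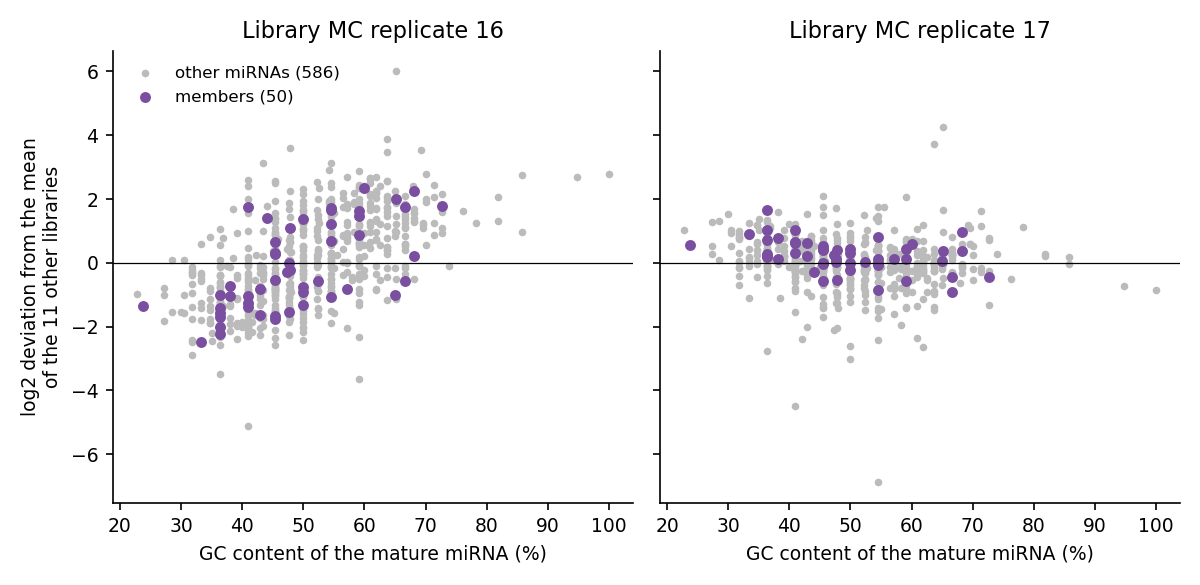
Deviation of each miRNA from its mean log2 normalized level in the 11 other libraries (y axis) against the GC content of the mature sequence (x axis), in MC replicate 16 and MC replicate 17. Purple points are 50 members and grey points 586 other miRNAs tested. Points rise from left to right in MC replicate 16 (Spearman's rho 0.677 for members) and not in MC replicate 17 (-0.423). The mean for MC replicate 17 includes MC replicate 16.

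The hairpins of the members lie on the plus strand of chromosome 12 (GRCm38) between positions 109563692 and 109743795, over 180.1 kb. Positions were found for the hairpins of 52 members. With the GENCODE M21 annotation, 1 member lies in an exon of Meg3, 8 lie antisense to the exon of Rtl1, 2 in introns of Rian, 5 in exons and 10 in introns of Mirg, and 26 in no other annotated gene. By position and name, 14 members (10 hairpins) form the block from Meg3 to Rtl1, 2 the Rian block, and 39 (34 hairpins) the block from miR-379 to miR-410. The miRNAs opposite Rtl1 are fully complementary to its transcript and are known to cut it, and the miR-379 to miR-410 block is known to be transcribed in neurons under control of Mef2.

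Levels differed widely between members. Mean normalized CPM over the 12 libraries was over 10000 for 1 member, 1000 to 10000 for 6, 100 to 1000 for 18, 10 to 100 for 18 and under 10 for 11. The most abundant was miR-127-3p, which lies opposite Rtl1, with 10920 ± 4932 (SD, n = 12 libraries; 9547 ± 1371 without MC replicate 16) and 33.6% ± 7.96 of the summed counts of the members. After it came miR-411-5p at 3282 ± 842, miR-434-3p at 2561 ± 806, miR-379-5p at 2251 ± 387 and miR-154-5p at 1852 ± 461. Then followed miR-376a-3p at 1369 ± 437, miR-487b-3p at 1057 ± 212, miR-433-3p at 848 ± 312, miR-410-3p at 741 ± 117 and miR-485-5p at 735 ± 653. The place of miR-485-5p rests on MC replicate 16, without which it was at 549 ± 118, below miR-300-3p at 687 ± 107, and miR-433-3p was then at 767 ± 138. The block from Meg3 to Rtl1 held 48.6% ± 6.48 of the summed counts (46.9% ± 2.29 without MC replicate 16), the block from miR-379 to miR-410 held 49.4% ± 6.37 (51.1% ± 2.49), and the Rian block 1.96% ± 0.737.

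Both arms were listed for 9 hairpins, and for 8 of them both had counts. The arm ratio was steady in its direction for 7 of these. The 3p arm of miR-127 exceeded the 5p arm by a mean log2 of 8.96 ± 0.87 over the 12 libraries (8.75 ± 0.50 without MC replicate 16). The 5p arm exceeded the 3p arm for miR-485 (6.48 ± 0.90), miR-411 (5.64 ± 0.33) and miR-337 (4.63 ± 1.02, or 4.38 ± 0.54 without MC replicate 16). The 3p arm was the higher for miR-434, at a log2 5p to 3p ratio of -4.03 ± 0.36, for miR-409 at -3.58 ± 0.47 and for miR-544 at -2.38 ± 0.53. For miR-136 the ratio was 0.27 ± 0.55 and its sign differed between libraries. In MC replicate 16 the arms deviated the same way for 5 of the 8 hairpins, both down for miR-136, miR-411, miR-434 and miR-544 (1 and 10 counts) and both up for miR-485. They went opposite ways for miR-127 (3p 1.46, 5p -1.06), miR-337 (5p 1.67, 3p -1.39) and miR-409 (3p 0.68, 5p -0.21).

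No 2 members with a RefSeq sequence under their name (52 of 55, the others being mmu-miR-376c-3p, mmu-miR-485-5p and mmu-miR-487b-3p) had the same seed. Several differed by 1 base within it, with positions counted from the 5′ end: miR-376b-3p from miR-376a-3p by G4A, miR-381-3p from miR-300-3p by G4A, miR-411-5p from miR-379-5p by G2A, miR-412-5p from miR-379-5p by A5C, and miR-411-3p from miR-410-3p by A4G. The closest pairs are shown because they would bind largely different targets from nearly the same sequence.
mmu-miR-376a-3p: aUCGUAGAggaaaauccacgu
mmu-miR-376b-3p: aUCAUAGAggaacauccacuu
mmu-miR-300-3p: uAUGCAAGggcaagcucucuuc
mmu-miR-381-3p: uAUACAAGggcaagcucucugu
Each of these pairs differed at 3 positions, so reads could have been divided between them in counting and their levels are uncertain to that extent. Normalized levels were 1369 for miR-376a-3p and 65.7 for miR-376b-3p, and 660 for miR-300-3p and 186 for miR-381-3p. The pairs' log2 levels had a Pearson r of 0.791 and 0.909 over 12 libraries (0.707 and 0.768 without MC replicate 16).

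Seeds were also shared with miRNAs outside the list. The seed of miR-410-3p, at 741 normalized CPM, is that of miR-344d-3p (122) and miR-344e-3p (0.228) on chromosome 7.
mmu-miR-410-3p: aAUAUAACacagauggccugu
mmu-miR-344d-3p: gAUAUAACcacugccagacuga
The seed of miR-411-3p (63.5) is that of miR-379-3p (34.4), the minor arm of a neighbouring hairpin. The seeds of miR-329-3p, miR-379-5p, miR-540-3p and miR-673-5p were shared with miR-362-3p, miR-1193-5p, miR-6915-5p and miR-6985-3p, all under 2 normalized CPM. In no case was the miRNA outside the list the more abundant.

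Summed over members, the cluster held 2.72%, 2.86% and 3.22% of the counts of SS replicates 12, 13 and 14, and 3.66%, 2.78% and 2.87% of CS replicates 8, 9 and 10. It held 2.87%, 3.59% and 2.96% of MS replicates 3, 4 and 23, and 3.18%, 3.58% and 3.40% of MC replicates 16, 17 and 20. As CPM, the mean sum of SS was 29338 ± 2607 and that of CS 31055 ± 4818 (SD, n = 3). With methionine it was 31398 ± 3932 (MS) and, with cocaine as well, 33861 ± 1972 (MC). The ranges of all 4 groups overlapped, and CS replicate 8 and MS replicate 4 were above every MC library. The log2 ratio of group means was 0.08 in CS vs. SS, 0.10 in MS vs. SS, 0.12 in MC vs. CS and 0.11 in MC vs. MS, and no test was made of a sum over chosen members. In bulk tissue, fewer cells of a type and less RNA per cell cannot be told apart.

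The sum moved with the share of miR-124-3p, the most abundant miRNA of the neuron list. That share was 16.5%, 17.6% and 7.03% of the counts in SS replicates 12, 13 and 14, and 3.00%, 14.9% and 15.4% in CS replicates 8, 9 and 10. It was 16.8%, 3.56% and 17.2% in MS replicates 3, 4 and 23, and 4.63%, 3.87% and 3.32% in MC replicates 16, 17 and 20. The 6 libraries with 14.9% or more had a cluster sum of 27183 to 29640 CPM, and the 6 with 7.03% or less a sum of 31828 to 36594 CPM. All 3 MC libraries were among the latter. With the counts of miR-124-3p left out of the library total, the cluster made up 3.40% ± 0.123 of what remained in SS and 3.48% ± 0.261 in CS. For MS this was 3.58% ± 0.139 and for MC 3.52% ± 0.192, and the log2 ratio was 0.03 in CS vs. SS, 0.08 in MS vs. SS, 0.02 in MC vs. CS and -0.02 in MC vs. MS.

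The weight of miR-127-3p also differed between libraries. It made up 57.2% of the cluster sum in MC replicate 16 and 26.6% to 35.6% in the other 11. Without miR-127-3p the sum was 13625 CPM in MC replicate 16 and 18190 to 26627 CPM elsewhere, and the log2 ratio of means was 0.17 in CS vs. SS, 0.13 in MS vs. SS, -0.12 in MC vs. CS and -0.08 in MC vs. MS. The negative values rest on MC replicate 16, without which they were 0.10 and 0.13. Scaled with TMM factors, the log2 ratio of the full sum was -0.18 in CS vs. SS, -0.13 in MS vs. SS, 0.30 in MC vs. CS and 0.26 in MC vs. MS, so the direction of the first pair depended on the scaling. Without MC replicate 16 the latter pair was 0.07 and 0.03.

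**Figure D2:**
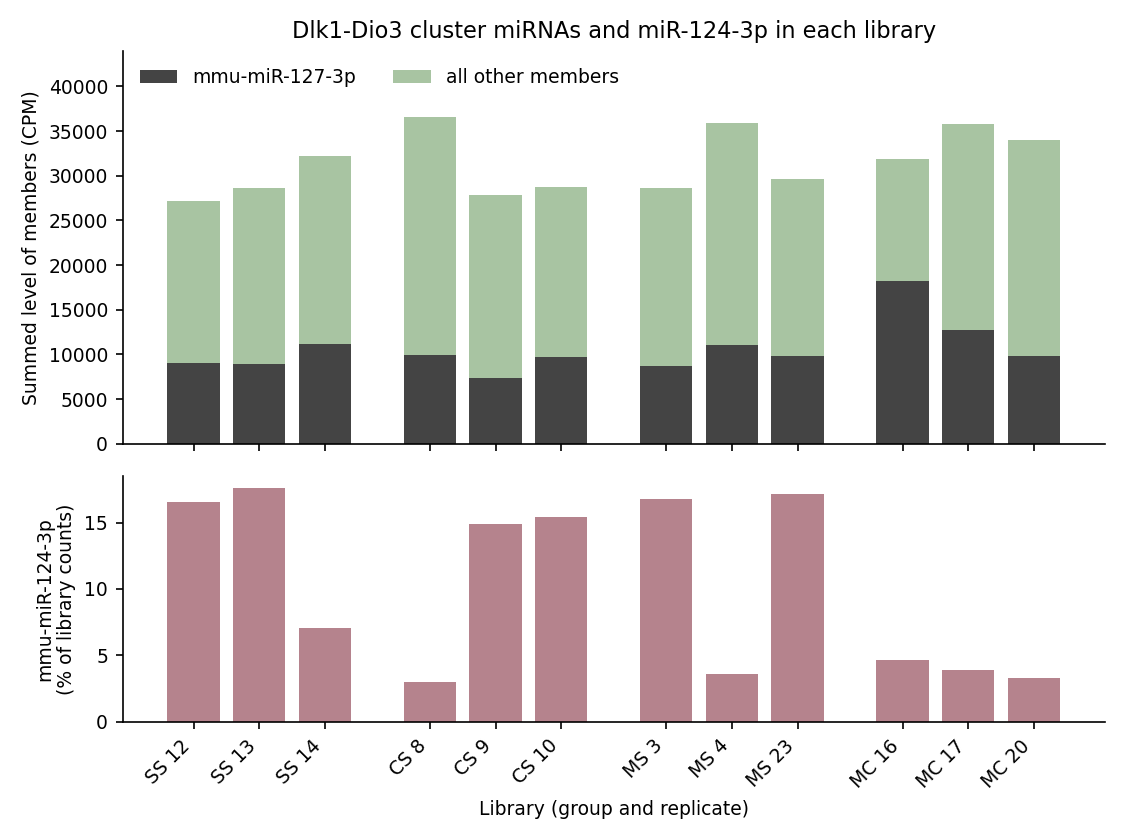
Upper panel, summed level of the members in each library in CPM, with miR-127-3p in dark grey and all other members in green. Lower panel, miR-124-3p as a percentage of the counts of the same library. The sum ran from 27183 CPM in SS replicate 12 to 36594 CPM in CS replicate 8, and miR-127-3p from 7412 CPM in CS replicate 9 to 18203 CPM in MC replicate 16.

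Each group is shared by a pair of the comparisons, so no correlation or overlap between comparisons was computed. The comparison of CS vs. SS asks what cocaine conditioning did without methionine. Among the abundant members, miR-127-3p was at 9752, 10808 and 11568 normalized CPM in SS replicates 12, 13 and 14 and at 7904, 7339 and 10050 in CS replicates 8, 9 and 10. The groups overlapped, and the log2 fold change was -0.35 (SE 0.35). The member with the smallest p was miR-341-3p, from an intron of Rian, at 829, 1039 and 635 in SS and 270, 512 and 754 in CS. Its values overlapped as well, with CS replicate 8 the lowest (log2 fold change -0.71, SE 0.39, unadjusted p = 0.0991).

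The next smallest p belonged to miR-494-3p and miR-136-5p. With 1.84, 2.52 and 3.84 normalized CPM in SS (14, 21 and 41 counts) and 3.56, 4.78 and 3.78 in CS (38, 42 and 30 counts), miR-494-3p is a low member whose groups overlapped (log2 fold change 0.55, SE 0.32, unadjusted p = 0.114). For miR-136-5p, opposite Rtl1, the levels were 57.9, 69.3 and 75.5 in SS and 92.3, 138 and 97.4 in CS. All CS libraries were above all SS libraries, and the log2 fold change was 0.69 (SE 0.49, unadjusted p = 0.186).

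In CS vs. SS, 0 of 53 members were called by edgeR's quasi-likelihood test (limits of 0.05 on the Benjamini-Hochberg adjusted p and of 1 on the log2 fold change in either direction; 0% of all 780 miRNAs), and the smallest adjusted p of a member was 0.992. At an unadjusted p under 0.05 there were 0 members with edgeR, against 2.69% of all miRNAs (1.15% higher and 1.54% lower), and 0 with DESeq2 (29 of all miRNAs). The groups did not overlap for 5 members (9.43%), where the share over all miRNAs was 9.62%. Of these, 3 were higher (5.66%, all 5.38%) and 2 lower (3.77%, all 4.23%). Of the members, 27 were higher and 26 lower, with a median log2 fold change of 0.01 against 0.04 over all miRNAs and a median SE of 0.40. Without TMM factors these medians were 0.24 and 0.31, with 44 members higher and 9 lower. Without MC replicate 16, which is in neither group here but in the fit, 4 members and 49 of all 773 miRNAs tested had an unadjusted p under 0.05.

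The comparison of MS vs. SS asks what methionine did without cocaine. The largest difference was in miR-494-3p, at 5.74, 7.74 and 5.55 normalized CPM in MS replicates 3, 4 and 23 (64, 91 and 57 counts) against the 1.84 to 3.84 of SS. All MS libraries were above all SS libraries. Its log2 fold change was 1.20 (SE 0.32, unadjusted p = 0.00297), which did not pass adjustment (adjusted p = 0.315, edgeR with Benjamini-Hochberg). Over the alternatives the fold change stayed between 0.99 and 1.53 and the adjusted p between 0.0572 (DESeq2) and 0.730, and without MC replicate 16 the adjusted p was 0.0831.

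The next smallest p was that of miR-376b-3p, of the miR-376 family, whose hairpins are known as substrates of A-to-I editing, and miR-376c-3p of that family came after miR-341-3p and miR-380-3p. In SS replicates 12, 13 and 14, miR-376b-3p was at 48.8, 39.9 and 43.3 normalized CPM, and in MS replicates 3, 4 and 23 at 70.8, 89.6 and 102. For miR-376c-3p the levels were 83.0, 97.0 and 64.8 in SS and 128, 156 and 158 in MS. Neither overlapped between the groups, with log2 fold changes of 0.99 (SE 0.39, unadjusted p = 0.0271) and 0.85 (SE 0.38, unadjusted p = 0.0450). The most abundant of the family, miR-376a-3p, was at 1287, 1225 and 656 in SS and 1691, 1687 and 1767 in MS, again without overlap (log2 fold change 0.70, SE 0.43, unadjusted p = 0.130).

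Between miR-376b-3p and miR-376c-3p in p were miR-341-3p and miR-380-3p, with lower values in MS. The level of miR-341-3p was 521, 244 and 510 normalized CPM in MS replicates 3, 4 and 23, all below the 635 to 1039 of SS (log2 fold change -0.97, SE 0.40, unadjusted p = 0.0305). Over all groups, its 5 lowest libraries (CS replicate 8, MS replicate 4 and the 3 MC libraries, 244 to 358) were the 5 with the lowest share of miR-124-3p, and the part of that share in its difference was not tested. For miR-380-3p the levels were 34.4, 31.7 and 24.1 in SS and 18.9, 20.2 and 16.6 in MS, without overlap (log2 fold change -0.70, SE 0.31, unadjusted p = 0.0442). The sequences of miR-494-3p, the higher member with the smallest p, and of these lower members, which share no seed, are shown. That of miR-376b-3p is given above.
mmu-miR-494-3p: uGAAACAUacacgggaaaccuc
mmu-miR-341-3p: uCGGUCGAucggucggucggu
mmu-miR-380-3p: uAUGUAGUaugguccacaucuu

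In MS vs. SS, 0 of 53 members were called by edgeR (0% of all 780 miRNAs), and 5 members (9.43%) had an unadjusted p under 0.05, against 9.10% of all miRNAs. Of these, 3 were higher (5.66%, all 5.77%) and 2 lower (3.77%, all 3.33%). DESeq2 gave 6 at that unadjusted p (76 of all miRNAs) and called 0 members and 7 other miRNAs. The groups did not overlap for 13 members (24.5%, all miRNAs 22.7%), 9 of them higher (17.0%, all 13.1%) and 4 lower (7.55%, all 9.62%). The median log2 fold change of the members was -0.02, with 26 higher and 27 lower, against -0.01 over all miRNAs. Without TMM factors the median was 0.24 against 0.21, with 40 higher and 13 lower. The 5 became 12 without MC replicate 16 (139 of all miRNAs, of which 4 were called and none was a member), 1 without SS replicate 13 or without MS replicate 4 (49 and 52 of all miRNAs), and 2 with library set as a covariate (53 of all). Library sets A (SS replicate 12 and CS replicates 8 and 9), B (MC replicate 20, the 3 MS libraries and SS replicates 13 and 14) and C (CS replicate 10 and MC replicates 16 and 17) were found from the profiles of 125 miRNA precursor families. With that covariate the log2 fold change of miR-494-3p was 1.10 (unadjusted p = 0.0131) and that of miR-376b-3p 0.92 (unadjusted p = 0.0812).

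The comparison of MC vs. CS asks what methionine did in animals given cocaine. The members with the smallest p were those that were high in MC replicate 16. For miR-485-5p, known to repress the synaptic vesicle protein SV2A, the levels were 415, 469 and 618 normalized CPM in CS and 2778, 516 and 542 in MC replicates 16, 17 and 20. For miR-127-3p they were 26021, 11194 and 8374 in MC, against 7339 to 10050 in CS. Both overlapped between the groups, and in both MC replicate 16 was the highest of the 12 libraries.

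The other of these members was miR-337-5p, at 347, 291 and 310 in CS and 1102, 362 and 365 in MC, where all MC libraries were above all CS libraries. The log2 fold changes were 1.35 (SE 0.55) for miR-485-5p, 0.95 (SE 0.39) for miR-337-5p and 0.85 (SE 0.35) for miR-127-3p, each with an adjusted p of 0.603 (edgeR with Benjamini-Hochberg). Without MC replicate 16 they were 0.08, 0.20 and 0.21, with unadjusted p of 0.730, 0.257 and 0.249. With the GC trend removed, miR-337-5p was at 0.77 (unadjusted p = 0.0208) and miR-127-3p at 0.49 (unadjusted p = 0.0470), each with an adjusted p of 0.567 (edgeR with Benjamini-Hochberg). For miR-485-5p, no mature sequence was found under that name in RefSeq, so that fit was not made. DESeq2 gave no p for miR-485-5p in any test.

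In MC vs. CS, 0 of 53 members were called by edgeR (0% of all 780 miRNAs) and 0 by DESeq2. An unadjusted p under 0.05 was found for 3 members (5.66%, all miRNAs 7.44%) with edgeR and for 3 with DESeq2 (70 of all miRNAs). By edgeR 3 were higher (all miRNAs 5.26%) and 0 lower (all 2.18%). Leaving out CS replicate 9 gave 0 (28 of all miRNAs), CS replicate 8 gave 1 (38), MC replicate 17 gave 5 (100) and MC replicate 20 gave 8 (108), and the library set covariate gave 0 (17). Without MC replicate 16 the number was again 3 (55 of all 773 miRNAs), but with other members (miR-127-5p, miR-376c-3p and miR-377-3p). Groups did not overlap for 4 members (7.55%, all miRNAs 8.33%), 2 higher (3.77%, all 4.87%) and 2 lower (3.77%, all 3.46%). The median log2 fold change of the members was -0.02, with 25 higher and 28 lower, against 0.08 over all miRNAs, and it was 0.03 against -0.02 without MC replicate 16.

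The comparison of MC vs. MS asks what cocaine did in animals given methionine. Again miR-485-5p had the smallest p, at 427, 417 and 574 normalized CPM in MS, and miR-770-3p, from an exon of Meg3, followed with 203, 196 and 229 in MS and 872, 209 and 257 in MC. The third was miR-134-5p, known to repress Limk1 at dendritic spines, at 43.3, 46.6 and 48.1 in MS and 151, 70.2 and 37.5 in MC. Each of the 3 was highest in MC replicate 16, and its values overlapped between the groups. For miR-134-5p, MC replicate 17 was above all MS libraries and MC replicate 20 below all of them.

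The log2 fold changes in MC vs. MS were 1.44 (SE 0.55) for miR-485-5p, 1.09 (SE 0.47) for miR-770-3p and 0.90 (SE 0.42) for miR-134-5p, each with an adjusted p of 0.560 (edgeR with Benjamini-Hochberg). Without MC replicate 16 they were 0.16, 0.15 and 0.23, and with library set as a covariate 0.50, 0.35 and 0.11. With the GC trend removed, miR-770-3p was at 0.08 and miR-134-5p at 0.52. By edgeR 0 of 53 members were called (0% of all 780 miRNAs), and by DESeq2 0. With an unadjusted p under 0.05 there were 2 members (3.77%, all miRNAs 7.95%) by edgeR and 5 by DESeq2 (78 of all miRNAs). By edgeR 2 were higher (all miRNAs 6.03%) and 0 lower (all 1.92%). The 2 became 11 without MC replicate 20 (121 of all miRNAs), 8 without MC replicate 17 (112), 1 without MC replicate 16 (35), SS replicate 13 (51), CS replicate 8 (55) or MS replicate 23 (37), and 0 without MS replicate 3 (20) or MS replicate 4 (34) and with the library set covariate (15). Groups did not overlap for 2 members (3.77%, all miRNAs 8.97%), 1 higher (1.89%, all 4.74%) and 1 lower (1.89%, all 4.23%). The median log2 fold change of the members was -0.03, with 25 higher and 28 lower, against 0.04 over all miRNAs, and 0.07 against 0.00 without MC replicate 16. With TMM factors from all small RNAs in place of miRNAs it was -0.12 against -0.09, with 17 higher and 36 lower.

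The interaction asks whether the difference with cocaine was another one when methionine was given. By edgeR 0 of 53 members passed an adjusted p of 0.05 (0% of all miRNAs), and 1 member (1.89%, all miRNAs 4.23%) had an unadjusted p under 0.05, while DESeq2 gave 0 at either limit (43 of all miRNAs unadjusted) but no p for this member. It was miR-485-5p, with a log2 interaction of 1.89 (SE 0.77), followed by miR-127-3p at 1.05 (SE 0.49) and miR-337-5p at 1.05 (SE 0.54), each with an adjusted p of 0.819 (edgeR with Benjamini-Hochberg). Without MC replicate 16 these were 0.62, 0.41 and 0.31, and with the GC trend removed miR-127-3p was at 0.68 and miR-337-5p at 0.91 (unadjusted p = 0.0457). Leaving out MC replicate 17 or MC replicate 20 gave 7 or 5 members at an unadjusted p under 0.05 (84 and 72 of all miRNAs), leaving out CS replicate 10 gave 2 (31), and leaving out SS replicate 13, CS replicate 8, CS replicate 9, MS replicate 3 or MS replicate 4 gave 0 (17 to 32).

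Among the 4 groups, 0 of 53 members passed an adjusted p of 0.05 by edgeR (0% of all miRNAs). By DESeq2 it was 0 members and 13 other miRNAs. At an unadjusted p under 0.05 there were 2 members by edgeR (3.77%, all miRNAs 7.31%) and 4 by DESeq2 (91 of all miRNAs). These 2 were miR-494-3p (unadjusted p = 0.0112) and miR-341-3p (unadjusted p = 0.0251), each with an adjusted p of 0.609 (edgeR with Benjamini-Hochberg). In MC replicates 16, 17 and 20, miR-494-3p was at 6.81, 5.73 and 5.49 normalized CPM and miR-341-3p at 329, 358 and 275. All MS and MC libraries were above all SS and CS libraries for miR-494-3p. The third was miR-370-3p, from an intron of Rian, with 28.6, 51.8 and 54.7 in SS, 36.4, 36.0 and 115 in CS, 42.2, 104 and 135 in MS and 299, 132 and 63.2 in MC. Its unadjusted p by edgeR was 0.0602, or 0.258 without MC replicate 16 and 0.0640 with the GC trend removed. The 2 became 8 without MC replicate 20 (89 of all miRNAs), 6 without MC replicate 16 (94) or MC replicate 17 (92), 3 without CS replicate 10 (57) or MS replicate 3 (49), and 1 without SS replicate 12 (42) or SS replicate 13 (27).

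With the GC trend removed, 50 members and 636 miRNAs in all could be tested, and 0 members were called by edgeR. The members with an unadjusted p under 0.05 were then 0 in CS vs. SS (32 of all miRNAs), 7 in MS vs. SS (86), 4 in MC vs. CS (45) and 3 in MC vs. MS (44). In the interaction there were 2 (38) and among groups 4 (67).

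**Figure D3:**
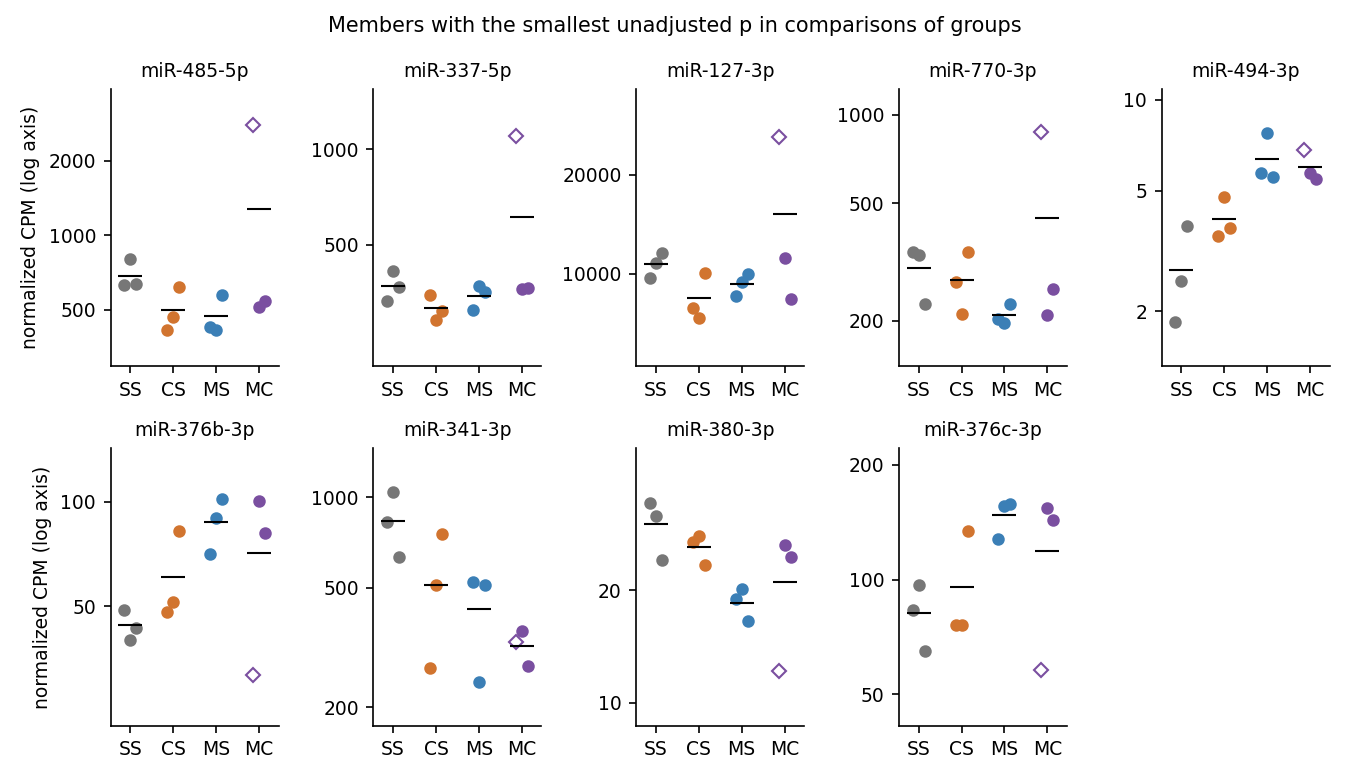
Normalized CPM (log axis) in each library of the 9 members with an unadjusted p under 0.05 in a comparison of groups, with 3 libraries per group. Bars are group means and the open diamond is MC replicate 16. In miR-485-5p, miR-337-5p, miR-127-3p and miR-770-3p the diamond is the highest point of the panel, and in miR-494-3p all MS and MC points lie above all SS and CS points.

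Among 43 members with a mean of at least 10 CPM, the median Pearson r between pairs of members in log2 normalized level over 12 libraries was 0.071 (0.033 without MC replicate 16), against 0.015 (0.010) among 304 other miRNAs at that level. These 304 include the other arms and miRNAs of the region at that level. The median r was -0.218 within the block from Meg3 to Rtl1 (13 members) and 0.138 within the block from miR-379 to miR-410 (28 members), and -0.004 and 0.015 without MC replicate 16. In log2 CPM, where the library total is shared, 42 of the 43 members had a positive r with the cluster sum (median 0.362, or 0.547 without MC replicate 16). Each member is itself part of that sum, which raises its r. A positive r was also found for 242 of 282 miRNAs outside the region (median 0.271, or 0.489). These are not part of the sum, so their values are not a like measure. The member nearest to the cluster sum was miR-543-3p over 12 libraries (r = 0.686, or 0.707 without MC replicate 16) and miR-337-5p without MC replicate 16 (r = 0.951, or 0.571 with it). The farthest was miR-341-3p with and without that library (r = -0.722 and -0.824).

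**Figure D4:**
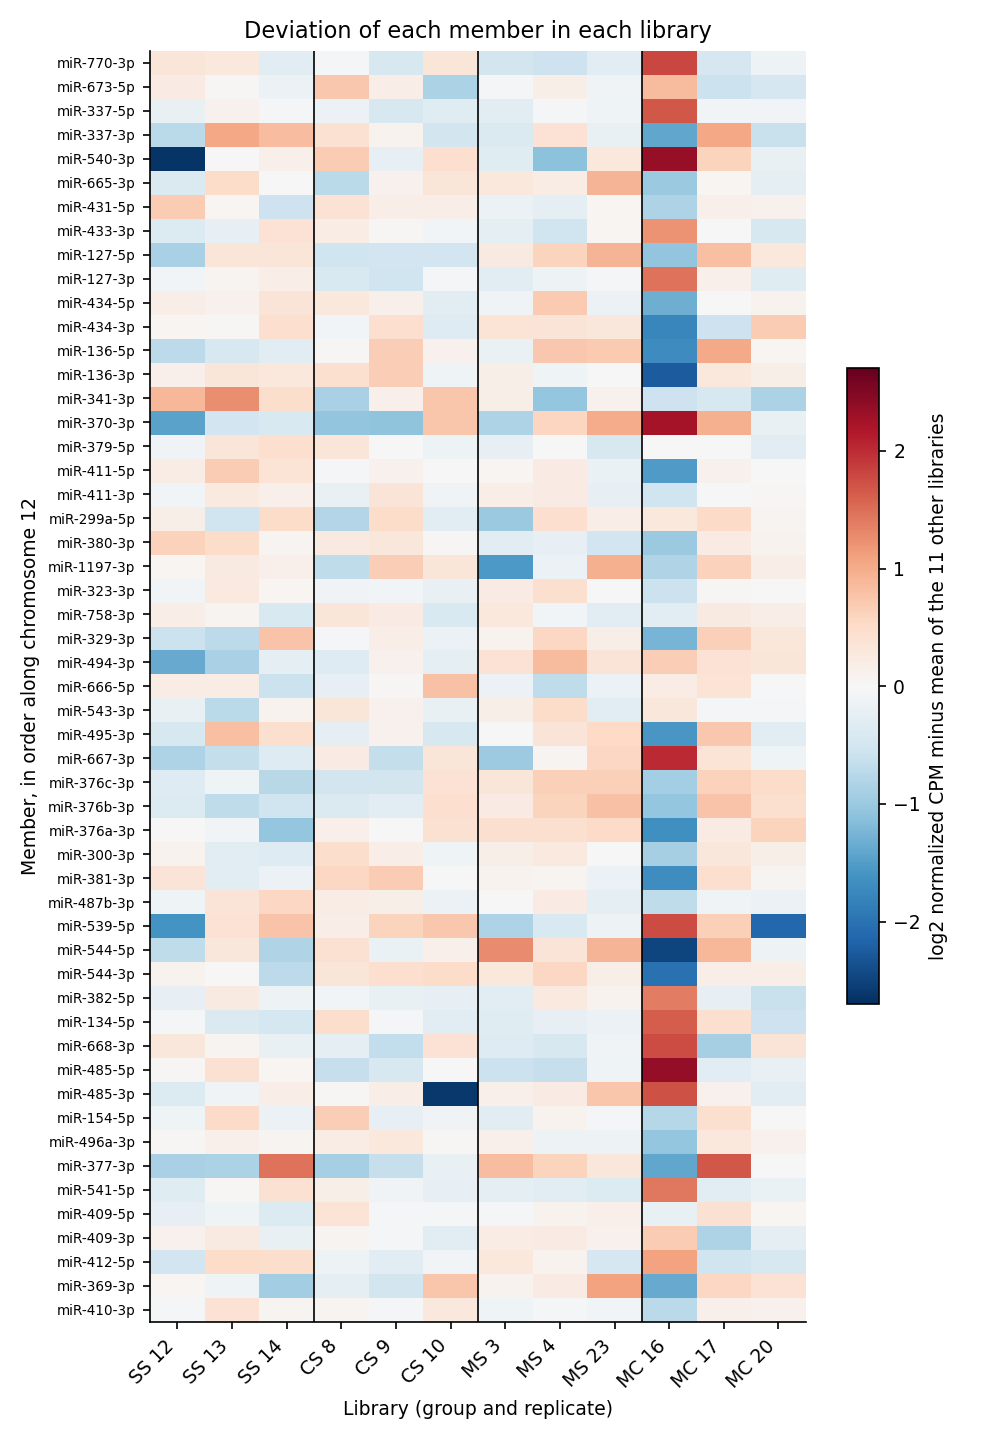
Deviation of each of 53 members (from top to bottom in order along chromosome 12) from its mean log2 normalized level in the 11 other libraries, in each library (columns, divided by group). Red is above and blue below that mean. The column of MC replicate 16 holds the lowest level of 27 members and the highest of 17.

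Outside the region, the 10 miRNAs whose log2 CPM followed the cluster sum most closely were miR-181b-5p (r = 0.918, n = 12 libraries), miR-324-5p (0.907), miR-6540-5p (0.881), miR-873a-3p (0.872), miR-181d-5p (0.864), miR-1981-3p (0.835), miR-212-3p (0.831), miR-125a-5p (0.814), miR-501-3p (0.808) and miR-138-1-3p (0.803). These values share the library total, and with it the share of miR-124-3p. Over these 10, r was between 0.0896 and 0.920 within the 6 libraries with the lower share of miR-124-3p and between 0.162 and 0.902 within the 6 with the higher share. It was over 0.6 in both for miR-324-5p (0.911 and 0.629), miR-873a-3p (0.603 and 0.882) and miR-138-1-3p (0.920 and 0.601).

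Of 60 other arms and miRNAs of the region, 52 had counts and 42 were tested. Their summed level was 3197 CPM in MC replicate 16 and 4315 to 5718 CPM elsewhere. The most abundant was miR-369-5p, at 2749 ± 764 normalized CPM (SD, n = 12 libraries; 984 in MC replicate 16), above all members but miR-127-3p and miR-411-5p. Next were miR-770-5p at 814 ± 422 (2042 in MC replicate 16) and miR-543-5p at 195 ± 30.4. By edgeR 0 of the 42 were called in any comparison, the interaction or the test among groups. An unadjusted p under 0.05 was found for 1 in CS vs. SS (all miRNAs 2.69%), 4 in MS vs. SS (9.10%), 2 in MC vs. CS (7.44%), 4 in MC vs. MS (7.95%), 3 in the interaction (4.23%) and 4 among groups (7.31%). Their median log2 fold changes were 0.11, -0.24, 0.05 and 0.08 in the comparisons in that order. The 4 in MC vs. MS were miR-323-5p, miR-329-5p, miR-667-5p and miR-673-3p, all higher in MC and highest in MC replicate 16. In that library they were at 641, 69.4, 3.31 and 12.7 normalized CPM, against at most 207, 45.8, 1.65 and 5.29 in any other.

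Reads on miRNA precursor families, counted apart from mature miRNAs, were found for 13 families that carry the number of a member. The mir-127 family had 1123 to 1756 counts per library, the mir-434 family 26 to 387 and the mir-433 family 48 to 420. The lowest 3 libraries of both mir-434 and mir-433 were those of set C, which these families helped to define. Of 10 other imprinted miRNAs, from outside chromosome 12, all had counts, 8 were tested and 0 were called. They were led by miR-335-5p at 121 normalized CPM, and their sum was 174 to 369 CPM per library.

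Markers of other cells were low beside those of neurons. The summed level per library was 392 to 1733 CPM for 3 oligodendrocyte miRNAs (led by miR-219a-2-3p), 359 to 808 CPM for 5 of microglia and leukocytes (miR-146a-5p), 18.8 to 48.6 CPM for 4 of choroid plexus and ependyma (miR-34c-5p) and 27.0 to 87.4 CPM for 3 of muscle (miR-133a-3p). For 6 pituitary and endocrine miRNAs (miR-7a-5p) it was 1281 to 5042 CPM, lowest in MC replicate 16. The 2 liver miRNAs, led by miR-122-5p, summed to 3507 CPM in MS replicate 3 and 125 to 407 CPM elsewhere. All listed markers had counts, and 0 of any list were called by edgeR. An unadjusted p under 0.05 was found in CS vs. SS (2.69% of all miRNAs) for miR-141-3p, higher, and miR-7a-5p, lower, both of the pituitary and endocrine list. Of that list, 4 of 6 were higher in CS (median log2 fold change 1.55). In MS vs. SS (9.10%) such a p was found for miR-141-3p, miR-122-5p and miR-192-5p (liver), miR-126a-5p (endothelium) and miR-144-3p (red blood cell), all higher. It was found as well for miR-7a-5p and miR-9-5p (neuron), both lower. The other arm, miR-9-3p, was higher (log2 fold change 0.56, against -0.62 for miR-9-5p). By list, 1 of 7 neuron, 4 of 6 pituitary and endocrine, 2 of 2 liver, 2 of 2 endothelial and 3 of 4 red blood cell miRNAs were higher. In MC vs. CS (7.44%) such a p was found for miR-122-5p (liver), miR-223-3p and miR-142a-5p (microglia and leukocytes), miR-375-3p (endocrine) and miR-296-5p (other imprinted), all higher. In MC replicates 16, 17 and 20, miR-223-3p was at 1.84, 3.63 and 142 normalized CPM, against 3.03 to 5.34 in CS. For miR-375-3p the levels were 192, 56.5 and 103, against 42.0 to 65.0 in CS. MC replicate 17 was below all CS libraries for miR-122-5p, as was MC replicate 16 for miR-142a-5p. Of the lists, 1 of 2 liver miRNAs, 3 of 5 microglia and leukocyte miRNAs and 1 of 6 pituitary and endocrine ones were higher. The log2 fold change of the other liver miRNA, miR-192-5p, was -0.02. In MC vs. MS (7.95%) miR-206-3p (muscle) and miR-375-3p were higher, and miR-122-5p, miR-192-5p and miR-126a-3p lower. Both of the higher ones were highest of the 12 libraries in MC replicate 16. There miR-206-3p was at 4.60 normalized CPM, against 1.43 and 1.18 in MC replicates 17 and 20 and 0.539 to 1.11 in MS. In MS, miR-375-3p was at 50.4 to 72.1, and it was the only 1 of 6 pituitary and endocrine miRNAs that was higher in MC. These lists are short, and no list was tested against these shares.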

How the data were processed

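RNA of 18 to 30 nt from mouse PFC was sequenced in 12 libraries, 3 per group. The deposited files give a count for each small RNA and library, and the authors removed reads of low quality, with adapters or too short and mapped the rest with AASRA, with Bowtie and mm10 named in the processing notes without versions. The TPM values, which the authors made as count over library total, matched the counts within 0.005. Only counts were used. How reads with several matches were counted is not stated.

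Counts on mature and predicted miRNAs were fitted with the quasi-likelihood F-test of edgeR 4.0.16 in R 4.3.3, with the library total as library size, TMM factors from these miRNAs, 1 coefficient per group and 8 residual degrees of freedom. A miRNA needed 5 counts in 3 libraries, and p-values were adjusted over all miRNAs tested. The script was tested on simulated data. Log2 levels used a pseudocount of 0.5. As alternatives, DESeq2 1.42.0 was run, as well as edgeR with TMM factors from every small RNA, from miRNAs other than the members or none, 10 counts in place of 5, no filter, a fit to the 6 libraries compared, no limit on the fold change, library set as a covariate and each library left out. Added later were a fit with the trend in GC content removed, a library total without miR-124-3p, and the cluster sum with TMM factors or without miR-127-3p when MC replicate 16 was left out too. Other steps used Python 3.11.15 with numpy 2.4.6, pandas 2.3.3, scipy 1.17.1 and matplotlib 3.10.9. Positions are from RefSeq (GRCm38.p6) and host genes from GENCODE M21.

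Members named are the 10 most abundant, those with an unadjusted p under 0.05 or among the 3 smallest in each test, those with both arms or a shared seed, and those nearest the filter limit. The members of the miR-376 and near-seed pairs and those most deviant in MC replicate 16, and single markers, were named after their values were seen. Other lists are the other miRNAs of the region, other imprinted miRNAs, and markers of neurons, oligodendrocytes, microglia, red blood cells, endothelium, choroid plexus, muscle, liver and endocrine cells. Members and lists were chosen with earlier results of these data known.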

Additional observations from a re-analysis of the deposited data

How the results depend on the processing

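No member was called in any comparison, the interaction or the test among groups under any alternative, and leaving out each library in turn gave 0 to 0 calls. The log2 ratios of the cluster sum were small beside their dependence on scaling. With TMM factors they were -0.18 in CS vs. SS, -0.13 in MS vs. SS, 0.30 in MC vs. CS and 0.26 in MC vs. MS, the latter pair 0.07 and 0.03 without MC replicate 16. Without miR-127-3p they were -0.12 in MC vs. CS and -0.0843 in MC vs. MS (0.10 and 0.13 without MC replicate 16 as well), and the median fitted log2 fold change of the members was -0.0302 in MC vs. MS. Beyond these values the cause was not tested. With each library left out in turn the ratio was -0.05 to 0.16 in CS vs. SS, -0.01 to 0.17 in MS vs. SS, 0.05 to 0.26 in MC vs. CS and 0.05 to 0.22 in MC vs. MS. The other 169 alternatives kept 0 calls or moved the sum by less than the SD between libraries. However, the ratio of the sum changed sign without CS replicate 8 (CS vs. SS) and without MS replicate 4 (MS vs. SS). It also changed sign with miR-124-3p left out of the library total (MC vs. MS). All 350 for named members kept direction and none passed the threshold (DESeq2 gave no p for miR-485-5p), but sizes varied widely: 0.08 to 1.73 for miR-485-5p in MC vs. CS, and in MC vs. MS 0.11 to 1.26 for miR-134-5p and 0.08 to 1.43 for miR-770-3p. In CS vs. SS the range was -1.09 to -0.40 for miR-341-3p and 0.34 to 0.88 for miR-494-3p. No paired analysis was possible because the numbers in the library titles are all distinct and the groups share none. With 3 libraries per group, the median SE of a member's log2 fold change was 0.40, and without MC replicate 16 it was 0.25 in CS vs. SS and MS vs. SS and 0.28 in the comparisons with MC, which limits the differences that could be called.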
